A study of Mus musculus with 4 samples.

Results

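The brush border genes described here were *Sis*, *Lct*, *Treh*, *Anpep*, *Enpep*, *Dpp4*, *Mep1a*, *Mep1b*, *Slc5a1* and *Vil1*. They were found as all probes, other than controls, whose gene name on the array is 1 of these 10 symbols, which gave 15 of 41174 probes and 10 of 27376 gene names. Of these genes, 6 had 1 probe, 3 had 2 probes and 1 had 3 probes. RNA from CD8αβ+ T cells of the small intestinal epithelium (CD8αβ+ IELs) was compared with RNA from CD8αβ+ T cells of the spleen (CD8αβ+ SPLs), with 2 samples per group and 1 sample per one-color Agilent array. All mice were male wild-type mice of 8 to 12 weeks, the labels list no treatment, and the paper states that each sample was sorted from several pooled mice as CD45+ CD3+ CD8α+ CD8β+ TCRβ+ cells. The labels do not say whether the 2 samples of a group came from separate groups of mice, so the p-values measure only the spread between these samples. The comparison addresses how much RNA of these genes each sample of sorted T cells held, and whether that amount differed between the groups beyond the spread between replicates. The cells that this RNA came from were not tested.

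The brush border is the carpet of microvilli on the luminal face of the absorptive enterocyte. Its membrane carries the disaccharidases and peptidases that finish the digestion of sugars and proteins and the transporters that take up the products, and a core of bundled actin holds each microvillus upright. Most of these proteins are regarded as markers of mature enterocytes, but several of the peptidases are also surface molecules of leukocytes, among them aminopeptidase N (CD13) on myeloid cells and dipeptidyl peptidase 4 (CD26) on T cells. The genes are therefore taken in the order of their roles, from disaccharidases to peptidases, the transporter and the structural protein.

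The promoters of 3 members are printed here, from 250 bases before to 50 bases after the gene start in RefSeq on GRCm38.p6. *Mep1a*, *Vil1* and *Sis* were chosen because, among members well above background, only they had both intestinal samples above both spleen samples. Capitals mark matches on either strand. For CDX, a factor of the gut epithelium, the letters searched were TTTATNG. Those of GATA factors were AGATAA, and for HNF4 the search used CAAAGTC. *Sis* lies on the minus strand at chr3:72967814-72968113, *Mep1a* on the minus strand at chr17:43502724-43503023 and *Vil1* on the plus strand at chr1:74409134-74409433.
Sis: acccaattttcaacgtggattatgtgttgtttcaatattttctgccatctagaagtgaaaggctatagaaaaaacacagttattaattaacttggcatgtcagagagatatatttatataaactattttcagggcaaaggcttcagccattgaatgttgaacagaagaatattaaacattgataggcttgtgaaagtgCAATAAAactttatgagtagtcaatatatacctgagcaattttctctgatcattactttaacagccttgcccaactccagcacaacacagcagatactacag
Mep1a: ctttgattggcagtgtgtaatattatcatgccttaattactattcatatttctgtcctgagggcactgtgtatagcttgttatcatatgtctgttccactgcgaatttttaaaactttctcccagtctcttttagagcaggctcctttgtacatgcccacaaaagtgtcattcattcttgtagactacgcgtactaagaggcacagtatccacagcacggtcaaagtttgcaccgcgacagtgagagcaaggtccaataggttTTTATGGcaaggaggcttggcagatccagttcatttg
Vil1: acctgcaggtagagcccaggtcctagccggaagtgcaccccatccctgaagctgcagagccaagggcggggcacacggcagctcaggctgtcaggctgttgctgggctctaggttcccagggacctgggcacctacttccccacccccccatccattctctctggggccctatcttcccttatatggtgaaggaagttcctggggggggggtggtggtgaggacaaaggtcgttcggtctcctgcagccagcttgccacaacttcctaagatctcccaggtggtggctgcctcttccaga
In *Sis* the CDX letters lay 52 to 46 bases before the start. In *Mep1a* the single CDX match lay 13 to 19 bases after the start, and in *Vil1* no match was found in this window. RefSeq promoters of 9 of the 10 members were searched, with *Mep1b* left out. Of the 9, 3 members held the CDX letters, 2 the GATA letters and 1 the HNF4 letters. Among 32851 promoters of the same length, 10.9% held the CDX letters, 11.2% the GATA letters and 4.44% the HNF4 letters. These matches describe the sequence only and are no evidence of binding.

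Each of the 2 slides held 1 sample of either group: slide 1 carried IEL replicate 1 together with SPL replicate 2, and slide 2 the remaining pair. Pearson's r across 27911 probes was 0.992 between the 2 samples of slide 2, which belong to different groups, against 0.946 between the CD8αβ+ IEL replicates. IEL replicate 2 thus stood nearer to a spleen sample than to its own replicate. Between the 2 samples of slide 1 r was 0.911, the lowest of these values, and between the CD8αβ+ SPL replicates it was 0.986. Differences within each slide are given beside the differences between the groups, and results without IEL replicate 1 or 2 follow. Levels are processed intensities in units of the scanner software, and normalized log2 levels are their log2 minus that of the array's 75th percentile, which was between 312 and 605 units. The percentile was lowest for IEL replicate 1 and highest for SPL replicate 2, which moves equal intensities apart by 0.96 on the log2 scale between these arrays. In limma, 0 of 27936 probes passed an adjusted p of 0.05 in either direction (0.00%), with no adjusted p below 0.634. Before adjustment, 1295 probes (4.64%) were higher and 308 (1.10%) lower in CD8αβ+ IELs at p under 0.05 in limma, and the unpaired test named in the paper's methods gave 470 and 349 before and 0 after Benjamini-Hochberg adjustment. An exact permutation test of 2 samples against 2 cannot go below a two-sided p of 0.333.

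Among the 10 members, 6 were well above background on all 4 arrays (*Sis*, *Lct*, *Anpep*, *Dpp4*, *Mep1a* and *Vil1*), and 4 were well above background on no array (*Treh*, *Enpep*, *Mep1b* and *Slc5a1*). Over all probes, 60.9% were well above background on all 4 arrays and 27.3% on none. Both CD8αβ+ IEL samples lay above both CD8αβ+ SPL samples for 3 of the 6 measured members (*Sis*, *Mep1a* and *Vil1*), against 24.4% of all tested probes. Both lay below for 1 member (*Dpp4*), against 24.6% of tested probes. For *Lct* and *Anpep* the groups overlapped. No member passed the adjusted threshold in limma (0 of 6). The 3 members above in both samples each had an unadjusted p under 0.05 in limma, where 4.64% of all tested probes were higher at that threshold. The median difference over the 6 measured members was 0.81 on the log2 scale (1.33 on slide 1 and 0.52 on slide 2), beside -0.001 over all tested probes. The difference was at least 2-fold in favor of CD8αβ+ IELs for 3 of the 6 members, against 6.44% of tested probes, and on both slides for 2 of them (*Mep1a* and *Vil1*), against 1.79%. It was at least 2-fold in favor of CD8αβ+ SPLs for 0 of 6, against 6.42% of tested probes, or 0.312% on both slides.

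**Figure D1:**
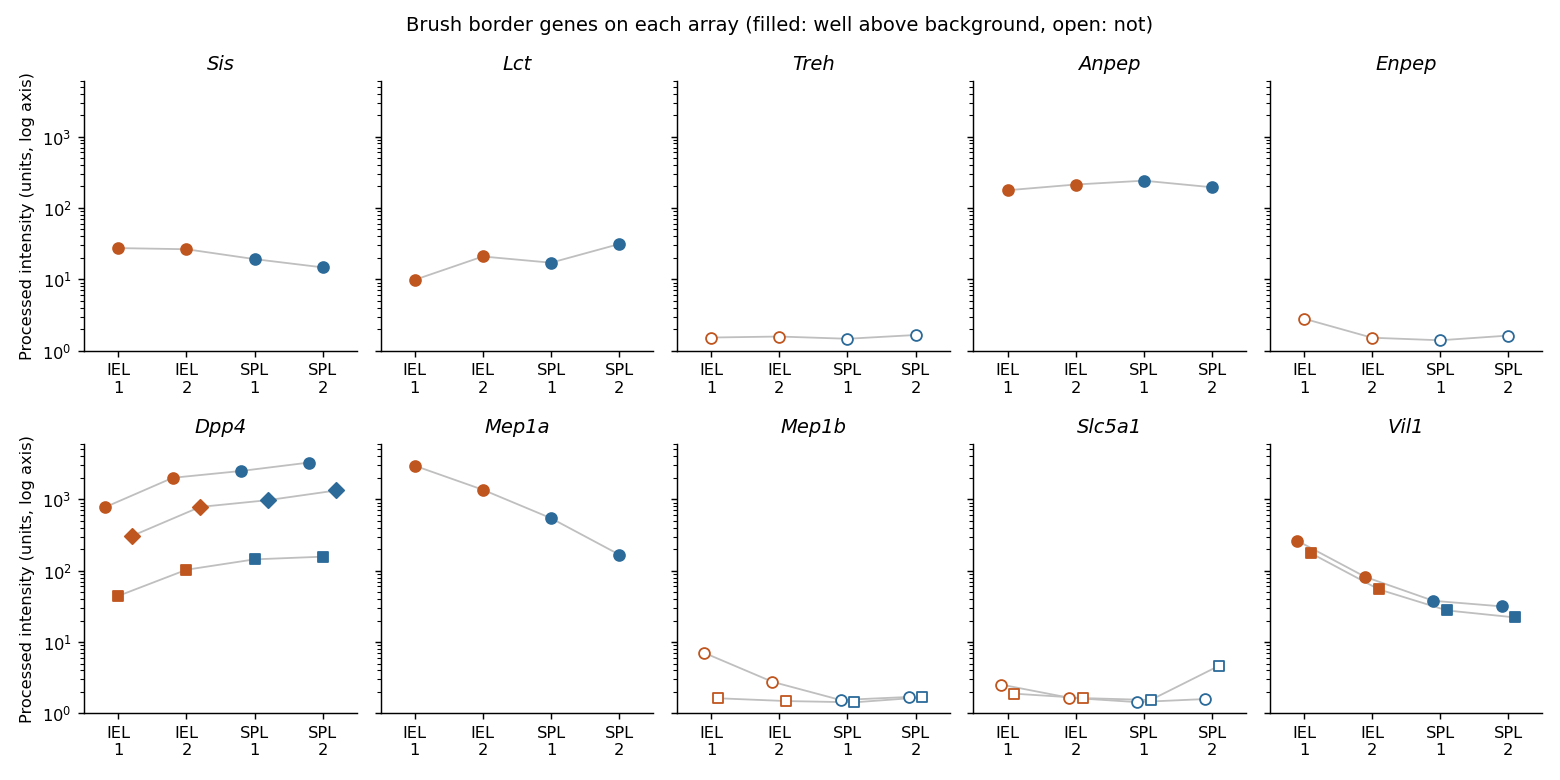
Processed intensity of every probe of the 10 genes on each of the 4 arrays, in scanner units on a log axis, before scaling between arrays. Markers of 1 shape belong to 1 probe, filled markers were well above background, open markers were not, orange marks CD8αβ+ IELs, blue marks CD8αβ+ SPLs, and lines only join the values of a probe. *Mep1a* runs from 2950 units on IEL replicate 1 to 168 units on SPL replicate 2, while all markers of *Treh*, *Enpep*, *Mep1b* and *Slc5a1* are open.

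*Sis* encodes sucrase-isomaltase, the enzyme that splits sucrose and the branch points of starch (probe A_51_P328631, chromosome 3 of mm9, 72692810 to 72692869, minus strand). Its processed intensity was 27.4 and 26.4 units on IEL replicates 1 and 2, and 19.2 and 14.7 units on SPL replicates 1 and 2. The 2 intestinal samples were nearly equal before scaling and lay above both spleen samples, and all 4 values were low. The normalized log2 level was -3.78 ± 0.37 (SD, n = 2) in CD8αβ+ IELs and -5.00 ± 0.51 (SD, n = 2) in CD8αβ+ SPLs. This difference of 1.23 (standard error 0.38, or 2.34-fold) had an unadjusted p of 0.0273 and an adjusted p of 0.634 in limma. Within slide 1 it was 1.85 and within slide 2 it was 0.60. Without scaling between arrays the difference was 0.68, and with the normexp background correction at an offset of 50 it turned to -0.82, where the median of all tested probes was -0.38.

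*Lct* encodes lactase-phlorizin hydrolase, the enzyme that digests milk sugar (probe A_52_P164797, chromosome 1 of mm9, 130181389 to 130181448, minus strand). Its intensity was 9.84 and 20.9 units on IEL replicates 1 and 2, and 17.1 and 31.2 units on SPL replicates 1 and 2. The lowest and the highest value both came from slide 1, and the groups overlapped. The log2 difference was -0.14 (standard error 0.35, adjusted p 0.881 in limma), with -0.71 on slide 1 and 0.43 on slide 2. *Treh* encodes trehalase, which splits trehalose, the sugar of fungi and insects (probe A_51_P314135, chromosome 9 of mm9, 44494224 to 44494283, plus strand). Its 4 values lay between 1.47 and 1.66 units and were all noise estimates that the scanner software writes where a spot has no usable signal. The median of the 153 negative control spots was between 1.48 and 1.69 units on the 4 arrays, so *Treh* could not be told from the negative controls.

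*Anpep* encodes aminopeptidase N, which removes neutral residues from the ends of peptides in the gut and is known as CD13 on myeloid cells (probe A_51_P231184, chromosome 7 of mm9, 86966725 to 86966784, minus strand). Its intensity was 177 and 213 units on IEL replicates 1 and 2, and 241 and 195 units on SPL replicates 1 and 2. The 4 samples were close to each other and the groups overlapped. The normalized log2 level was -0.92 ± 0.15 (SD, n = 2) in CD8αβ+ IELs and -1.31 ± 0.45 (SD, n = 2) in CD8αβ+ SPLs, a difference of 0.39 (standard error 0.32, adjusted p 0.663 in limma). It was 0.81 on slide 1 and -0.04 on slide 2, and without scaling it turned to -0.16. Since CD13 also marks myeloid cells, the levels of macrophage and neutrophil markers are given beside it. The median log2 level of 9 tested macrophage markers was -3.91 and 0.17 in IEL replicates 1 and 2, and 0.41 and -0.78 in SPL replicates 1 and 2, with a median difference of -1.35 (-2.38 on slide 1 and -0.30 on slide 2). Their summed level relative to the 75th percentile of each array, which was mostly *Lyz2*, was between 36.4 and 48.3 on the 4 arrays. The summed level of 5 tested neutrophil markers was 0.0843 and 35.5 in IEL replicates 1 and 2, and 44.2 and 49.6 in SPL replicates 1 and 2. Their part in the *Anpep* values was not tested.

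*Dpp4* encodes dipeptidyl peptidase 4, which cuts pairs of residues from peptides and is the activation antigen CD26 on T cells. It was the only measured member whose 2 intestinal values both lay below both spleen values. Of its 3 probes, A_52_P417368 is shown because its 60 bases span 2067 bases of mm9 (chr2:62192636-62194702, minus strand) and so cross an intron, which makes it a probe for spliced RNA.
A_52_P417368: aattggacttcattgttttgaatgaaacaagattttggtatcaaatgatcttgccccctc
The other probes, A_51_P467110 (chromosome 2 of mm9, 62170062 to 62170121) and A_52_P443578, overlap by 20 bases and are not independent of each other. On A_51_P467110 the intensity was 770 and 2000 units on IEL replicates 1 and 2, and 2490 and 3270 units on SPL replicates 1 and 2. On A_52_P417368 it was 44.3 and 103 units on IEL replicates 1 and 2, and 144 and 157 units on SPL replicates 1 and 2. On each probe IEL replicate 1 was far below the other 3 arrays, which lay near each other. The log2 difference was -0.65 (standard error 0.38, unadjusted p 0.154, adjusted p 0.634 in limma) on A_51_P467110, with -1.13 on slide 1 and -0.17 on slide 2. It was -0.61 on A_52_P417368 and -0.67 on A_52_P443578 (standard errors 0.34 and 0.37), so the 3 probes gave similar differences. The standard errors measure the spread between samples, which the probes share, and not the spread between probes. The summed level of 11 T cell markers, relative to the 75th percentile, was 782 and 860 in IEL replicates 1 and 2, and 883 and 865 in SPL replicates 1 and 2. This sum was mostly *Cd8b1*, *Thy1*, *Cd8a* and *Cd3d*. Of the 11 markers, 5 lay below and 4 above in both intestinal samples, against 24.6% and 24.4% of tested probes. The lowest, *Cd2*, differed by -1.13 (-1.88 on slide 1 and -0.38 on slide 2), and the highest, *Cd3g*, by 0.52 (0.82 and 0.22). Their relation to the *Dpp4* values was not tested. In bulk RNA such as this, fewer cells of a type and less RNA per cell cannot be told apart.

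*Mep1a* encodes the α subunit of meprin, a zinc protease of the brush border that is also secreted into the lumen (probe A_51_P414915, chromosome 17 of mm9, 43611737 to 43611796, minus strand). It had the largest difference of the measured members. Its intensity was 2950 and 1360 units on IEL replicates 1 and 2, and 543 and 168 units on SPL replicates 1 and 2. Both intestinal samples were above both spleen samples, and within each group 1 sample was at least 2-fold above the other. The normalized log2 level was 2.44 ± 1.13 (SD, n = 2) in CD8αβ+ IELs and -0.83 ± 1.43 (SD, n = 2) in CD8αβ+ SPLs. The difference was 3.28 (standard error 0.90, or 9.69-fold), with an unadjusted p of 0.0191 and an adjusted p of 0.634 in limma. It was 5.09 on slide 1 (34.0-fold) and 1.47 on slide 2 (2.76-fold). Among the 6 measured members, *Mep1a* and *Dpp4* kept the sign of their difference under each scaling and background correction, and *Mep1a* stayed between 2.40 and 3.28.

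The partner gene *Mep1b* encodes the β subunit, which anchors meprin in the membrane, and it was well above background on no array. On probe A_51_P390508 its intensity was 7.04 and 2.77 units on IEL replicates 1 and 2, and 1.54 and 1.70 units on SPL replicates 1 and 2, the last pair being noise estimates. The highest of these values, on IEL replicate 1, was just under 7.29 units, the lowest signal that counted as well above background on that array. On its other probe all 4 values were noise estimates between 1.43 and 1.68 units. *Enpep*, which encodes aminopeptidase A (BP-1/6C3), a peptidase of acidic residues that also marks early B cells, gave 2.81 units on IEL replicate 1 and noise estimates between 1.40 and 1.63 units on the other arrays (probe A_51_P161830). Neither gene entered the main test, and with no filter on dim probes the difference was 2.00 (standard error 0.64) for *Mep1b* and 1.00 (standard error 0.51) for *Enpep*, each with an adjusted p of 0.465 in limma.

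*Slc5a1* encodes SGLT1, the sodium-coupled carrier through which glucose and galactose enter the enterocyte. On probe A_51_P241863 (chromosome 5 of mm9, 33504352 to 33504411, plus strand) the intensity was 2.54 units on IEL replicate 1 and between 1.44 and 1.66 units on the other arrays. On probe A_52_P669128 the highest value, 4.63 units, came from SPL replicate 2, so the 2 probes placed their highest value in different groups. Neither probe was well above background on any array, and the transporter could not be told from background here.

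*Vil1* encodes villin, the protein that bundles and severs actin in the microvillus core and that is widely used as a marker of gut epithelium. Its 2 probes, A_51_P381409 (chromosome 1 of mm9, 74481962 to 74482021, plus strand) and A_52_P260555 (74481982 to 74482041), overlap by 40 bases. On A_51_P381409 the intensity was 263 and 81.7 units on IEL replicates 1 and 2, and 37.8 and 31.6 units on SPL replicates 1 and 2. IEL replicate 1 was far above the other 3 arrays, and IEL replicate 2 was above both spleen samples. The normalized log2 level was -1.33 ± 1.53 (SD, n = 2) in CD8αβ+ IELs and -3.96 ± 0.42 (SD, n = 2) in CD8αβ+ SPLs. The difference of 2.63 (standard error 0.79, or 6.20-fold) had an unadjusted p of 0.0257 and an adjusted p of 0.634 in limma. It was 4.01 on slide 1 (16.1-fold) and 1.25 on slide 2 (2.39-fold). The overlapping probe gave 2.54 (standard error 0.80), with 3.95 and 1.12 on the slides. With the normexp correction at an offset of 50 the *Vil1* difference was -0.01, against 1.68 when the spots furthest below local background were kept out of that correction.

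**Figure D2:**
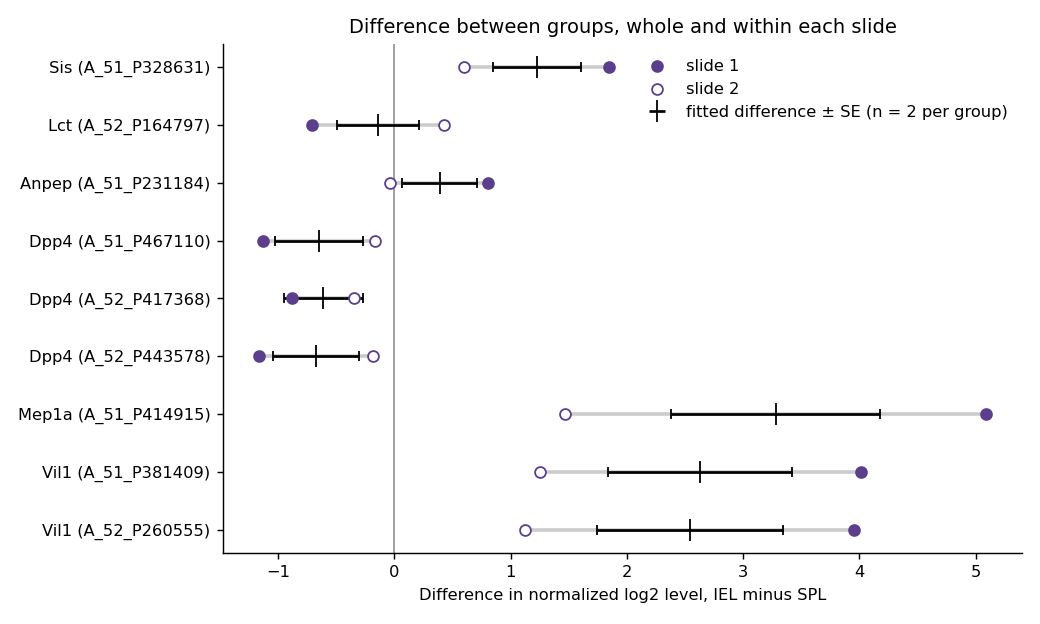
Difference in normalized log2 level, IEL minus SPL, for the 9 tested probes of the 6 measured members. Filled circles give slide 1, open circles slide 2, and black bars the limma difference with its standard error (n = 2 per group). For *Mep1a* and *Vil1* both slides lie to the right of 1, all 3 *Dpp4* probes lie to the left of 0 on both slides, and *Lct* and *Anpep* have slides on either side of 0.

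When IEL replicate 2 was left out, 2588 of 28453 probes were higher (9.10%) and 2933 lower (10.3%) in limma, where the remaining intestinal sample was assumed to vary like the spleen samples. Of the 6 measured members, *Vil1* (3.71, adjusted p 0.0085) and *Mep1a* (4.07, adjusted p 0.0409) were then higher and *Dpp4* (-1.10, adjusted p 0.0431) was lower in limma. *Sis* did not pass, with 1.49 and an adjusted p of 0.0606. No member passed in limma when any of the other 3 arrays was left out. Without IEL replicate 1 the differences were smaller, with 2.48 for *Mep1a* (adjusted p 0.69), 1.55 for *Vil1* (0.674), 0.96 for *Sis* (0.711) and -0.20 for *Dpp4* (0.953) in limma. The sizes for *Vil1* and *Dpp4* thus moved by over 1.5 times with this 1 array, and those for *Dpp4* also without IEL replicate 2.

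Epithelial markers ordered the arrays in the way that *Mep1a*, *Vil1* and *Sis* did. All 11 genes of the epithelial list (among them *Cdh1*, *Krt8* and *Lgals4*) had both intestinal samples above both spleen samples. The median difference of the list was 3.23 (5.29 on slide 1 and 1.24 on slide 2) and turned to -0.04 with the normexp correction at an offset of 50. With that correction only 5 of the 11 genes, those named among them, kept a difference above 0. The summed level of all 11 genes relative to the 75th percentile was 33.2 and 7.41 in IEL replicates 1 and 2, and 4.24 and 2.43 in SPL replicates 1 and 2. The 4 arrays stood in the same order, IEL replicate 1, IEL replicate 2, SPL replicate 1 and SPL replicate 2 from high to low, for all 11 of these genes, for *Sis*, *Mep1a* and *Vil1*, and for 13.8% of all tested probes (14.0% had the reverse order). Relative to its mean over the arrays, *Vil1* was at 2.40, 0.24, -1.02 and -1.61 in that order, and the median of the epithelial list at 2.32, 0.29, -1.04 and -1.57. *Mep1a* was at 2.44, 0.84, -0.62 and -2.65, and thus further below its mean on SPL replicate 2 than the epithelial list.

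The list of absorptive enterocyte markers, the cell type whose surface these genes build, had the same direction, but parts of it were at background. Of its 9 genes 7 were tested, and all 7 had both intestinal samples above both spleen samples (median difference 2.13, with 2.79 on slide 1 and 1.47 on slide 2, or -0.71 with normexp at an offset of 50). *Fabp2*, which encodes the intestinal fatty acid binding protein, differed by 3.29 (5.11 on slide 1 and 1.47 on slide 2), with an adjusted p of 0.634 in limma. The apolipoprotein gene *Apoc3* and *Mttp*, of which the latter is needed for lipoprotein assembly, were well above background on no array. The summed level of the 7 genes was 3.56 and 1.63 in IEL replicates 1 and 2, and 0.598 and 0.183 in SPL replicates 1 and 2. The summed level of 6 goblet cell markers was 36.3 and 4.16 in IEL replicates 1 and 2, and 1.53 and 0.277 in SPL replicates 1 and 2, and 3 of 4 tested Paneth cell markers (*Itln1*, *Mmp7* and *Ang4*) had both intestinal samples above both spleen samples, although *Mmp7* turned to -0.10 with the normexp correction at an offset of 50. The median difference of the 4 Paneth cell markers was 3.02 (5.30 on slide 1 and 0.76 on slide 2), while their summed level, which was mostly *Lyz1*, was 38.4 on IEL replicate 1 and between 4.31 and 5.24 elsewhere. The sort gated on CD45+ CD3+ cells, and the paper reports a high purity. It also states that *Epcam*, *Lyz1*, *Lyz2* and other Paneth and epithelial genes were not upregulated, and judges such contamination unlikely. Here *Epcam* differed by 1.60 (2.79 on slide 1 and 0.42 on slide 2), or -0.49 with normexp at an offset of 50. *Lyz1* differed by 0.99 (2.31 and -0.33 on the slides) and *Lyz2* by 0.07 (0.36 and -0.21). None passed the adjusted threshold in limma. The part of enterocytes, goblet cells and Paneth cells in the brush border values was not tested.

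**Figure D3:**
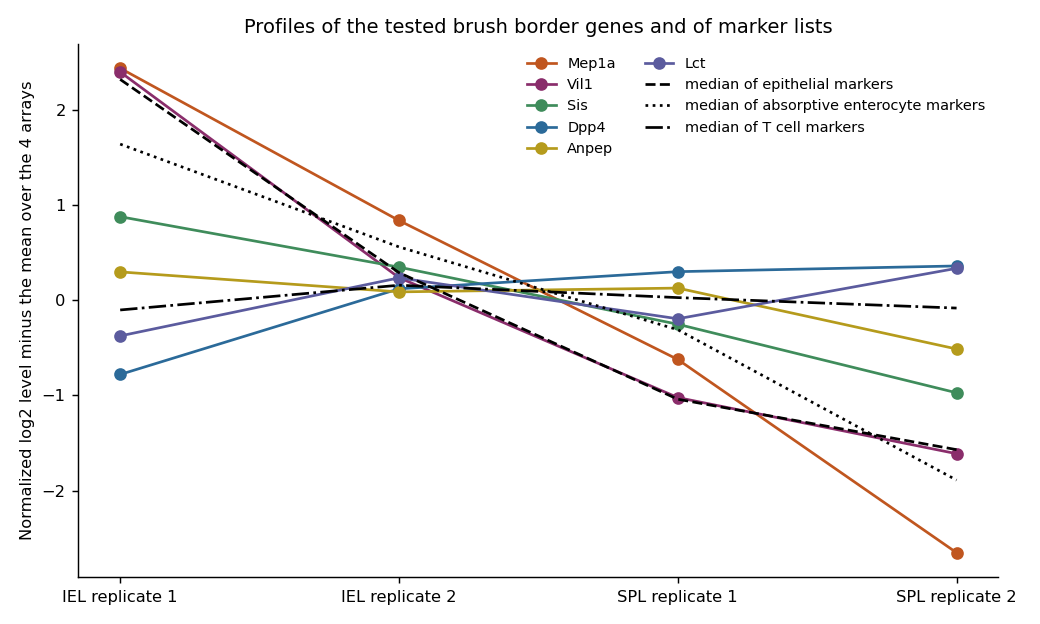
Normalized log2 level on each array minus the mean over the 4 arrays, for the 6 measured members (colors) and for the medians of 3 marker lists (black). Lines only join values of a gene or list, and the order of the arrays is that of the group and replicate labels. *Vil1* lies close to the epithelial median, *Mep1a* ends lower at -2.65, and *Dpp4* has its lowest value, -0.78, on IEL replicate 1.

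Other genes of the brush border had differences between -3.40 and 2.07, so none was as far above the spleen samples as *Mep1a* or *Vil1*. Of 61 further genes, 60 were on the array. Of these, 15 were well above background on no array, against 27.3% of all probes, and 37 were tested, of which 0 passed in limma. At an unadjusted p under 0.05 in limma 3 of the 37 were higher and 1 lower, against 4.64% and 1.10% of all tested probes. Both intestinal samples lay above both spleen samples for 21 of the 37 and below for 6, against 24.4% and 24.6% of all tested probes. The median difference was 0.55 (0.48 on slide 1 and 0.27 on slide 2), and without scaling between arrays it was 0.00, with 5 of 37 above and 11 of 37 below, where 6.60% and 60.6% of all tested probes were above and below. With the normexp correction at an offset of 50 the median was -0.71. Under the other scalings and background corrections that were run it was between 0.43 and 0.54. Without scaling the median of all tested probes was -0.549, and with the normexp correction it was -0.38. Of the genes named from these lists in what follows, *Mgam*, *Alpi*, *Slc26a3*, *Abcg8*, *Pdzk1* and *Gata4* turned negative and *Klf4* positive with that correction, and *Asah2* and *Espn* turned positive when it was fitted without the spots furthest below local background. *Gata4* also turned negative without scaling.

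Among other brush border hydrolases, 6 of 14 were tested, and their median difference was 0.26 (0.32 on slide 1 and 0.12 on slide 2). *Mgam*, which encodes maltase-glucoamylase, had 101 units on IEL replicate 1 and between 13.4 and 14.8 units on the other arrays. It was thus high on 1 array only, with a difference of 2.07 (standard error 1.13, adjusted p 0.634 in limma), 3.88 on slide 1 and 0.27 on slide 2. *Alpi*, the intestinal alkaline phosphatase, differed by 0.58 (0.66 and 0.51 on slides 1 and 2). *Ggt1*, a γ-glutamyl transferase, differed by -2.37 (-4.40 and -0.35 on the slides), with 18.9 units on IEL replicate 1 and 396 to 773 units elsewhere. *Asah2*, the neutral ceramidase, differed by -0.65 (-0.72 and -0.59 on the slides), and neither intestinal sample was well above background for it. The peptidase genes *Mme*, *Folh1* and *Xpnpep2*, the phosphatase gene *Akp3* and the sphingomyelinase gene *Enpp7* were well above background on no array.

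Among apical transporters and receptors, 11 of 18 were tested, with a median difference of 0.43 (0.39 on slide 1 and 0.14 on slide 2). *Slc26a3*, a chloride-bicarbonate exchanger, differed by 1.04 (standard error 0.22, unadjusted p 0.0079 and adjusted p 0.634 in limma), with 1.00 on slide 1 and 1.09 on slide 2. Its intensities were between 6.57 and 12.7 units, close to background on all arrays. *Abcg8*, a subunit of the apical sterol exporter, differed by 1.17 (1.93 and 0.40 on the slides), with values between 4.72 and 13.8 units. *Slc6a19*, a carrier of neutral amino acids, had 160 units on IEL replicate 2 and 260 and 494 units on SPL replicates 1 and 2, but only 3.38 units on IEL replicate 1, where it was not well above background. *Amn*, which anchors the receptor for intrinsic factor, differed by -1.05 (-1.91 on slide 1 and -0.19 on slide 2). The peptide carrier *Slc15a1*, the fructose carrier *Slc2a5* and the receptor gene *Cubn* were among 6 genes of this list that were well above background on no array.

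Among genes of the microvillus core and its adhesion links, 11 of 15 were tested, with a median difference of 0.75 (1.18 on slide 1 and 0.22 on slide 2). *Pdzk1*, a scaffold of apical transporters, had 82.4 and 48.4 units on IEL replicates 1 and 2, and 29.3 and 21.3 units on SPL replicates 1 and 2, a difference of 1.89 (standard error 0.55, adjusted p 0.634 in limma), or 2.91 on slide 1 and 0.87 on slide 2. *Myo6*, a myosin motor that moves toward the base of the microvillus, differed by 1.43 (2.21 on slide 1 and 0.66 on slide 2). *Ezr*, which encodes ezrin, the link between membrane and actin that lymphocytes also use, differed by -0.45 (-0.73 and -0.17 on the slides). *Espn*, the actin bundler espin, differed by -0.18 near background (-0.22 and -0.14 on the slides). Of 14 genes for transcription factors of the enterocyte, 9 were tested, with a median difference of 0.57 (0.47 on slide 1 and 0.48 on slide 2) and no gene below in both intestinal samples. *Creb3l3*, a membrane-bound factor of lipid metabolism, differed by 1.75 (adjusted p 0.634 in limma), with 2.75 on slide 1 and 0.74 on slide 2. *Gata4* (0.30, with 0.32 and 0.28 on the slides) and *Klf4* (-0.12, with -0.19 and -0.05) were at the other end of this list. *Cdx1* and *Gata5* were well above background on no array.

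**Figure D4:**
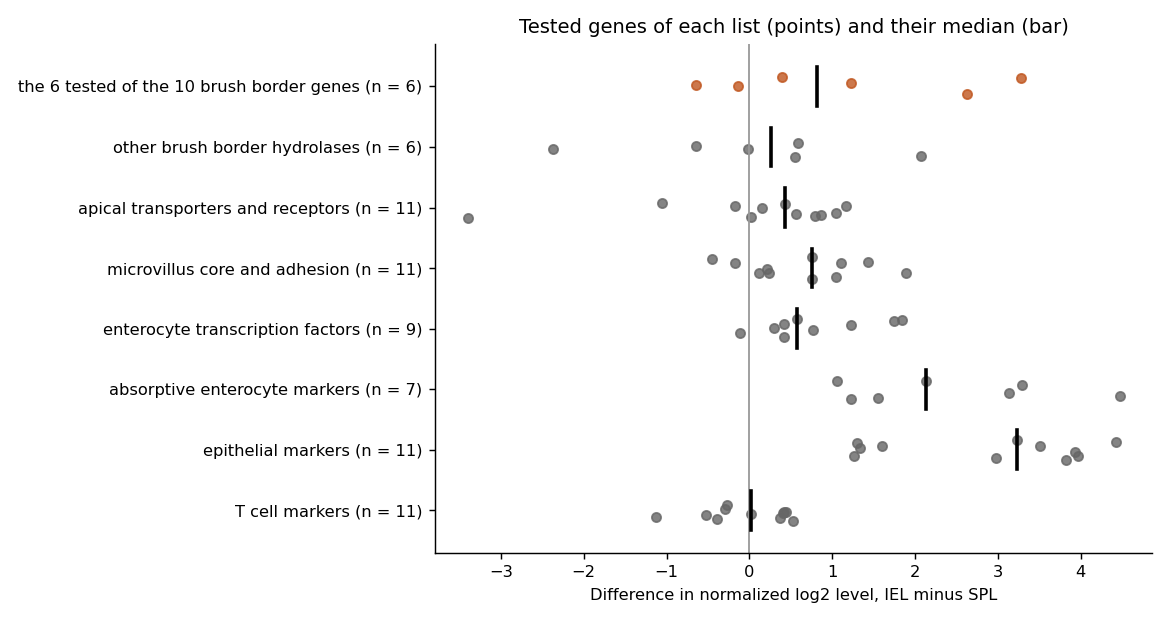
Difference in normalized log2 level, IEL minus SPL, for each tested gene (points) of the brush border lists and of 3 marker lists, with the median of each list (black bar). The measured members spread from -0.65 to 3.28 around a median of 0.81, the epithelial markers lie between 1.26 and 4.42, and the T cell markers center on 0.02.

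The genes most like the median profile of the 6 measured members over the 4 arrays, by Euclidean distance of mean-centered log2 levels, were *3110079O15Rik*, *Lxn*, *Endod1*, *Cenpn* and *1190002F15Rik*, at distances between 0.0741 and 0.103. For single members, chosen after their values were seen, *Itga1*, which encodes the CD49a chain of a collagen receptor, was nearest to *Mep1a* (distance 0.0398), *Cdkn1a*, which encodes the cell cycle inhibitor p21, was nearest to *Vil1* (0.0832), and *Kat2b*, a gene for an acetyltransferase, was nearest to *Dpp4* (0.0256). With 4 arrays, many genes have nearly the same profile, and these distances describe likeness only.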

How the data were processed

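Per the file headers, the authors' scanner files hold intensity values from Agilent Feature Extraction 10.7.3.1 (the submitters' processing notes name version 10.7.1.1), with background subtracted within each array and arrays not normalized to each other. A further deposited table holds log2 values of the same arrays, which had medians between 5.57 and 5.59 and were used as an alternative. PrimeView chips are named in the paper, whereas the files are from Agilent arrays. Outlier-marked spots (98 to 179 per array) were left out of 43379 spots, no spot was saturated (0 on each array), and log2 intensities minus each array's 75th percentile were averaged per probe. Probes well above background on both arrays of a group were tested with limma 3.58.1 in R 4.3.3, without a block, with Benjamini-Hochberg adjustment over all 27936 tested probes. A gene was represented by its tested probe with the highest mean level. The number of arrays limits the precision. Whether replicate numbers pair the samples was not settled. The correlation of deviations from the group means was -0.025 by replicate number and 0.025 by slide. With 2 samples per group these are the same value with opposite signs, so neither can show or exclude pairing. Named genes were all members, the 2 highest and 2 lowest genes of each list, genes needed to show which markers were at background, and the 5 most like profiles, with a few list genes and 1 motif not reported here. Members and lists were chosen with earlier results of these data known. Of 15 member probes, 14 matched RefSeq genes by accession, with unchanged symbols. Alternatives were other scalings and background corrections, dim-probe filters, a variance trend, blocks, the unpaired test of the methods, gene means and each array left out. The fit was run on simulated data with known shifts, at the spread of these arrays and at a smaller spread. Recovery of the shifts was required only at the smaller spread, so this run does not show what the fit can detect here.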

Additional observations from a re-analysis of the deposited data

How the results depend on the processing

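The member counts of 0 higher and 0 lower held under all 16 settings that kept every array. With normexp at an offset of 50, the member median turned to -0.17, *Sis* to -0.82, *Anpep* to -0.16 and *Vil1* to -0.01. With normexp without spots far below local background, the median was 0.47 and *Lct* turned to 0.29. Without scaling, an alternative chosen after seeing the data, the median was 0.26 and *Anpep* turned to -0.16, where the median of all tested probes was -0.549. The unpaired test of the methods called 470 probes higher and 349 lower unadjusted. The cause of these shifts was not tested. With each array left out in turn, called probes ranged from 0 to 2588 higher and from 0 to 2933 lower, member calls from 0 to 2 higher and from 0 to 1 lower, and the member median from 0.50 to 1.14. The largest counts came without IEL replicate 2. *Lct* ranged from -0.44 to 0.16, turning without IEL replicate 1 (0.16) and without SPL replicate 2 (0.12). With the replicate number as a block 0 probes were called, with adjusted p-values in limma of 0.205 for *Mep1a* and 0.29 for *Vil1*, and the slide as a block called 0. Signal over background limits *Treh*, *Enpep*, *Mep1b* and *Slc5a1*.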

Other observations

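Outside the brush border genes, B cell markers and the endothelial marker *Pecam1* were lower on IEL replicate 1 than on the other 3 arrays. The summed level of 6 B cell markers, relative to each array's 75th percentile, was 3.58 and 20.2 in IEL replicates 1 and 2, and 25.9 and 19.7 in SPL replicates 1 and 2. *Ms4a1*, which encodes CD20, had 4.40 units on IEL replicate 1, where it was not well above background, and between 2100 and 3200 units on the other arrays. *Pecam1* had 34.7 units on IEL replicate 1 and between 346 and 644 units elsewhere, whereas the stromal marker *Col1a1* had 22.5 and 19.4 units on IEL replicates 1 and 2, and 15.3 and 18.7 units on SPL replicates 1 and 2. Their relation to the brush border values was not tested.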
